A study of Mus musculus with 12 samples.

Results

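Ccl3, Ccl4, Ccl5 and Xcl1 encode 4 chemokine ligands, small secreted proteins that draw cells bearing the matching receptors. They were taken by symbol from the gene table of the array, and each was read by 1 probe, so 4 of 23473 probes and 4 of the 16942 genes tested are described here. The genes were chosen because an earlier comparison of the DN with the CD4 fraction in these arrays put them higher in DN, so their DN and CD4 values are given as a description with no test. All 4 were listed above background on all 12 arrays.

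The study set T cells of the Peyer's patches that carry the αβ receptor but neither CD4 nor CD8β beside the other T cells of the same tissue. Cells came from pools of 3 to 5 C57BL/6 mice of both sexes, aged 10 weeks, and the labels name no treatment. They were stained for CD8β, CD4, TCRβ and the γδ receptor and sorted to a stated purity above 98%, with 3 arrays for each of 4 fractions. DN cells were γδTCR-TCRβ+CD4-CD8β-, CD4 cells carried TCRβ and CD4, CD8 cells carried TCRβ and CD8β, and γδ cells carried the γδ receptor without TCRβ. CD8α was not part of the gate, so CD8αα cells could enter the DN fraction. RNA was collected 3 times, but the labels do not say that each round used other mice. A p-value here covers only the spread among these samples, which may be technical.

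Ccl3, Ccl4 and Ccl5 are CC chemokines, and Ccl3 and Ccl5 act on the receptor Ccr1. Xcl1, or lymphotactin, belongs to the small C class and acts on Xcr1, a receptor of dendritic cells that present antigen to CD8 T cells. Natural killer cells, activated CD8 T cells and the T cells of the gut epithelium are known producers of this set, which they often release together on activation. Peyer's patches are lymphoid tissue of the small intestine in which T cells, B cells and dendritic cells meet.

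2 libraries went against their labels. Cd8b1, which encodes CD8β, had a log2 signal of 13.80 and 13.62 in CD8 2 and CD8 3, but 8.57 in the library labelled CD8 1. In the γδ fraction it was 8.29 and 8.14 in γδ 2 and γδ 3, but 13.91 in the library labelled γδ 1. Cd163l1, a scavenger receptor gene of γδ T cells, was at 8.23 in the library labelled CD8 1 and at 6.10 in the library labelled γδ 1, against 8.57 and 8.48 in γδ 2 and γδ 3. Among the other sort genes, Cd4 was between 8.76 and 9.97 in the CD4 libraries and at most 6.16 elsewhere. Cd8a, which encodes CD8α, was between 7.75 and 7.96 in the CD4 libraries and at least 13.49 elsewhere. In DN 1 to 3 Cd8a read 14.42, 14.35 and 14.22, against 13.85 and 13.49 in CD8 2 and CD8 3. Cd8b1 read 6.29, 6.26 and 6.28 in DN 1 to 3, below every other library. The DN libraries were thus high in Cd8a RNA and low in Cd8b1 RNA, and CD8α protein was not tested. The CD3 chain genes Cd3d, Cd3e and Cd3g were listed in every library. All labels were kept, and each result is given over 12 arrays as labelled and over the 10 arrays without the libraries labelled CD8 1 and γδ 1. Replicate 1 of every fraction lay on another array series than replicates 2 and 3, so that what sets replicate 1 apart and the series cannot be told apart. Levels are log2 normalised spot signals unless the deposited value table is named.

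Ccl3, Ccl4 and Ccl5 lie close together on chromosome 11 and Xcl1 lies alone on chromosome 1. RefSeq (GRCm38.p6) gave a promoter window for 2 of the 4, and the 250 bases before the start site are shown for Ccl3, at chr11:83649379-83649628, and for Xcl1, at chr1:164935523-164935772, because the 2 genes sit on different chromosomes and were both chosen as higher in DN. Both are read 5′ to 3′ on the minus strand, and capitals mark the RUNX core TGTGGT and the T-box motif GGTGTGA on either strand.
Ccl3: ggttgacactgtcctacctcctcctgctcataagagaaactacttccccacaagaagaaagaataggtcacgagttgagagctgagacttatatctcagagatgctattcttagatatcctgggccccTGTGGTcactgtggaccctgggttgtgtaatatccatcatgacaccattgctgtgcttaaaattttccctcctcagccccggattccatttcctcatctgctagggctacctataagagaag
Xcl1: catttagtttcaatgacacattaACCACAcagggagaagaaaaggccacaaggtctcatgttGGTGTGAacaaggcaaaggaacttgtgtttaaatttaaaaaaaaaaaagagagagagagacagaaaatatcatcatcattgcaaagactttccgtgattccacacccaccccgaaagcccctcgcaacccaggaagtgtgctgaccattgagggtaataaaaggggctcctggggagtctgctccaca
Each window held 1 match to TGTGGT, ending 116 bases before the start site in Ccl3 and 221 in Xcl1, and 14% of all 32851 RefSeq windows of this length held at least 1. GGTGTGA had 1 match in Xcl1, 181 bases from the start, and 0 in Ccl3, against 3.33% of all windows. The NFAT core GGAAA matched at 2 places in Ccl3 and 1 in Xcl1, against 55.6% of all windows, and the AP-1 motif TGANTCA, the CRE motif TGACGTCA and the NF-kB motif had 0 matches in both. None of these matches overlapped another. They describe the letters of the windows only.

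Xcl1 was high in every DN library. Its log2 signal was 12.04, 12 and 11.99 in DN 1 to 3, against 8.23, 6.90 and 6.90 in CD4 1 to 3. In the CD8 fraction it was 12.23 in the library labelled CD8 1 but 9.23 and 9.26 in CD8 2 and CD8 3, and in the γδ fraction it was 9.45 in the library labelled γδ 1 but 12.14 and 12.02 in γδ 2 and γδ 3. DN libraries therefore lay close to γδ 2 and γδ 3 and to the library labelled CD8 1, CD8 2 and CD8 3 lay lower, and CD4 libraries lay lowest. The CD4 libraries also differed among themselves, with CD4 1 above the other pair. Group means were 12.01 ± 0.03 in DN, 7.34 ± 0.76 in CD4, 10.24 ± 1.72 in CD8 and 11.20 ± 1.52 in γδ (SD, n = 3 each). Over the 10 arrays the mean was 9.25 ± 0.02 in CD8 and 12.08 ± 0.08 in γδ (SD, n = 2 each). On the deposited value table, a linear intensity scaled within each array, Xcl1 stood at 4544 ± 696 in DN and 174 ± 153 in CD4 (SD, n = 3 each).

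Ccl5, or RANTES, drew the strongest spot signal of the array or the next in every DN library. Its log2 signal was 15.67, 15.67 and 15.57 in DN 1 to 3 and 11.33, 11.24 and 11.38 in CD4 1 to 3. It was 15.67 in the library labelled CD8 1, 12.96 and 12.91 in CD8 2 and CD8 3, 13.58 in the library labelled γδ 1, and 15.57 in both γδ 2 and γδ 3. No DN library overlapped CD4 2, CD4 1 or CD4 3, nor CD8 2 or CD8 3, while the library labelled CD8 1 had the same value as DN 1 and DN 2. The Ccl5 spot of DN 1 was at the scanner limit of 65535, and that of the library labelled CD8 1 was at 64624, so the value of DN 1 is a lower bound. Ccl5 ranked 1 or 2 among 23473 probes on 6 arrays, those of DN 1 to 3, γδ 2, γδ 3 and the library labelled CD8 1. Quantile normalisation gives equal ranks equal values, which makes the SD of 0.06 in DN and 0 in γδ (10 arrays) and the SE of Ccl5 too small, and it hides any order among those libraries. The value table, scaled within each array, read 103558.8, 63298.6 and 54616.0 in DN 1 to 3. It read 83529.9 in the library labelled CD8 1, and 53980.6 and 52647.1 in γδ 2 and γδ 3. The unscaled spots had another order, with 47559 in DN 3, 46771 in γδ 2 and 50338 in γδ 3. No order among those libraries is therefore read from the value table. In CD4 libraries the value table read between 2733.1 and 4042.3, and in CD8 2 and CD8 3 it read 12139.9 and 11555.4. Both lay below those libraries on that scale too.

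Ccl4, a CC chemokine that attracts T cells and monocytes, showed a different order at the top. Its log2 signal was 8.19, 8.73 and 8.64 in DN 1 to 3, and 9.39 and 9.44 in γδ 2 and γδ 3. It was 5.89, 5.92 and 5.93 in CD4 1 to 3, 6.89 and 6.92 in CD8 2 and CD8 3, 7.99 in the library labelled CD8 1 and 6.53 in the library labelled γδ 1. γδ 2 and γδ 3 thus exceeded every DN library, and the library labelled CD8 1 fell just under the lowest DN library. Group means were 8.52 ± 0.29 in DN, 5.92 ± 0.02 in CD4, 7.27 ± 0.63 in CD8 and 8.45 ± 1.66 in γδ (SD, n = 3 each). The value table gave 304.2, 451.2 and 401.7 in DN 1 to 3, and 756.6 and 666.6 in γδ 2 and γδ 3.

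Ccl3, the near relative of Ccl4 and a ligand of Ccr1, had a log2 signal of 7.39, 7.72 and 7.65 in DN 1 to 3 and 5.98, 5.89 and 5.86 in CD4 1 to 3. It was 7.67 and 7.71 in γδ 2 and γδ 3 and 7.61 in the library labelled CD8 1, all within or near the DN range. CD8 2 and CD8 3 read 6.17 and 6.20 and the library labelled γδ 1 read 6.26, between the CD4 and the DN libraries. Group means were 7.59 ± 0.17 in DN, 5.91 ± 0.07 in CD4, 6.66 ± 0.82 in CD8 and 7.21 ± 0.83 in γδ (SD, n = 3 each). Over CD4 libraries the value table listed Ccl3 at only 5.4 to 16.1, near the edge of detection, against 144.6 to 202.1 in DN. The probe sequences were not used here, so cross-hybridisation between Ccl3 and Ccl4 transcripts was not tested.

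**Figure D1:**
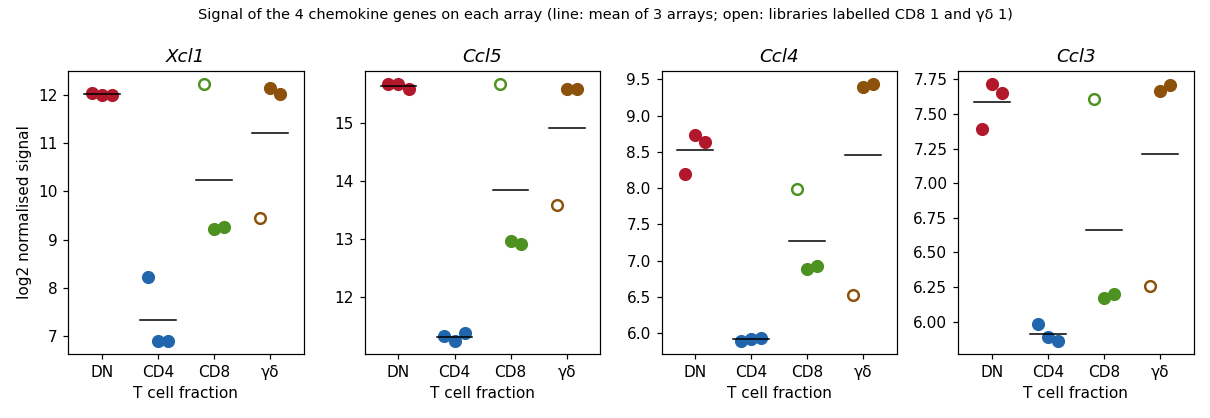
Log2 normalised signal of Xcl1, Ccl5, Ccl4 and Ccl3 (vertical axes, each with its own range) in the DN, CD4, CD8 and γδ fractions, with 1 point per array, a line at the mean of the 3 arrays and open points for the libraries labelled CD8 1 and γδ 1. In each panel the open CD8 point lies above both filled CD8 points and the open γδ point lies below both filled γδ points.

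The comparison of DN with CD4 is the one the genes were chosen on. The log2 differences, DN minus CD4, were 4.66 for Xcl1, 4.32 for Ccl5, 2.60 for Ccl4 and 1.68 for Ccl3, with SEs of 0.92, 0.75, 0.69 and 0.45 over 12 arrays and 0.33, 0.04, 0.13 and 0.08 over 10. As folds on this scale they were 25.4 for Xcl1, 6.08 for Ccl4 and 3.20 for Ccl3. No fold is given for Ccl5, whose difference and SE rest on tied top ranks and on a DN spot at the scanner limit. The median of the 4 was 3.46, where the median of all genes was -0.01. All 4 had DN libraries above every CD4 library, as did 10.8% of all genes, and nothing is read from that count because the choice of genes used it. The sizes depended on the scale: on the value table, which adds no offset to dim spots, the differences were 5.04 for Xcl1, 4.44 for Ccl5, 5.24 for Ccl4 and 4.28 for Ccl3, so Ccl4 had the highest value there and Ccl3 the lowest. In bulk samples, fewer cells that make a transcript and less of it per cell cannot be told apart.

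DN also exceeded CD8 once the doubtful libraries were left out, and the DN libraries are shared with the comparison above. Over 10 arrays the log2 differences, DN minus CD8, were 2.76 ± 0.37 for Xcl1, 2.70 ± 0.05 for Ccl5, 1.62 ± 0.14 for Ccl4 and 1.40 ± 0.09 for Ccl3 (SE, n = 3 and 2). All 4 had DN libraries above both CD8 libraries, as did 22.3% of all genes. As labelled the differences were 1.77, 1.79, 1.25 and 0.92, with SEs of 0.92, 0.75, 0.69 and 0.45, and Ccl4 alone did not overlap, as 6% of genes did in that direction. The median of the 4 moved from 1.51 to 2.16.

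Between DN and γδ the sign of the difference depended on the same 2 libraries. As labelled, DN minus γδ was 0.81 for Xcl1, 0.73 for Ccl5, 0.37 for Ccl3 and 0.07 for Ccl4, with SEs of 0.92, 0.75, 0.45 and 0.69, so that no member differed by more than its SE. Over 10 arrays the differences were -0.07 ± 0.37 for Xcl1, 0.07 ± 0.05 for Ccl5, -0.11 ± 0.09 for Ccl3 and -0.90 ± 0.14 for Ccl4 (SE, n = 3 and 2). Xcl1, Ccl5 and Ccl3 overlapped between DN and γδ. Ccl4 was lower in all 3 DN libraries than in γδ 2 and γδ 3, a separation that 19.4% of all genes had in that direction. The value table gave the same -0.90 ± 0.23 for Ccl4 and 0.41 ± 0.30 for Ccl5.

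CD4 libraries were below CD8 libraries for each of the 4 genes, both as labelled and over 10 arrays. Over 10 arrays CD4 minus CD8 was -1.90 ± 0.37 for Xcl1, -1.62 ± 0.05 for Ccl5, -0.99 ± 0.14 for Ccl4 and -0.28 ± 0.09 for Ccl3 (SE, n = 3 and 2), and 19.6% of all genes separated in that direction. CD4 minus γδ was -4.74 ± 0.37, -4.25 ± 0.05, -3.50 ± 0.14 and -1.78 ± 0.09 in the same order of genes, where 18.1% of all genes separated. As labelled, 5.48% and 6.48% of genes separated in that direction, and the differences were -2.89, -2.53, -1.35 and -0.75 against CD8 and -3.86, -3.59, -2.54 and -1.31 against γδ. Over 10 arrays the order of levels was thus CD4, CD8 and then DN with γδ for Xcl1, Ccl5 and Ccl3, and CD4, CD8, DN, γδ for Ccl4. Neighbours in that order did not overlap, except DN and γδ for Xcl1, Ccl5 and Ccl3.

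CD8 against γδ is the comparison whose difference uses no DN or CD4 library, and the 4 genes were tested there. The spread behind its SE and p was estimated over all 4 fractions. DN and CD4 libraries, on which the genes were chosen, thus enter the test, which is not fully independent of that choice. As labelled, with limma and Benjamini-Hochberg adjustment over 16942 genes, none of the 4 passed. CD8 minus γδ was -0.96 ± 0.92 for Xcl1, -1.06 ± 0.75 for Ccl5, -1.19 ± 0.69 for Ccl4 and -0.55 ± 0.45 for Ccl3 (SE, n = 3 each), with an adjusted p of 1 for each and unadjusted p of 0.324, 0.19, 0.118 and 0.25. limma called 0% of all genes there, and 331 genes had an unadjusted p under 0.05. Without the libraries labelled CD8 1 and γδ 1, all 4 were lower in CD8. Xcl1 differed by -2.83 ± 0.40, Ccl5 by -2.63 ± 0.05, Ccl4 by -2.51 ± 0.16 and Ccl3 by -1.51 ± 0.10 (SE, n = 2 each). The adjusted p from limma was 0.00659, 1.96e-06, 0.000138 and 0.000184, and 3.77% of all genes were called lower in CD8. That fit rests on 2 libraries per fraction, chosen with their values known. For Ccl5 the tied top ranks make the SE, and with it the p, too small.

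The calls over 10 arrays also held on the value table, where the differences were -2.85 for Xcl1, -2.17 for Ccl5, -3.11 for Ccl4 and -2.94 for Ccl3, with adjusted p from limma of 0.0239, 0.00415, 0.000126 and 0.00383. Leaving out each further library in turn kept the calls of Ccl3, Ccl4 and Ccl5 in 10 of 10 fits. In 4 of these fits, as in all such fits over 10 arrays, CD8 or γδ has 1 library left, which is assumed to vary like the other groups. Xcl1 kept its call in 8 of 10 and missed it without CD8 3 and without γδ 2, with a highest adjusted p of 0.0541. Within replicate numbers the sign was not the same. In replicate 1, the library labelled CD8 1 exceeded the library labelled γδ 1 by 2.78 for Xcl1, 2.09 for Ccl5, 1.46 for Ccl4 and 1.35 for Ccl3. In replicates 2 and 3 the differences lay between -2.91 and -2.76 for Xcl1, at -2.61 and -2.65 for Ccl5, at -2.50 and -2.52 for Ccl4 and at -1.5 and -1.51 for Ccl3. The pooled difference as labelled is the mean of these opposed values.

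**Figure D2:**
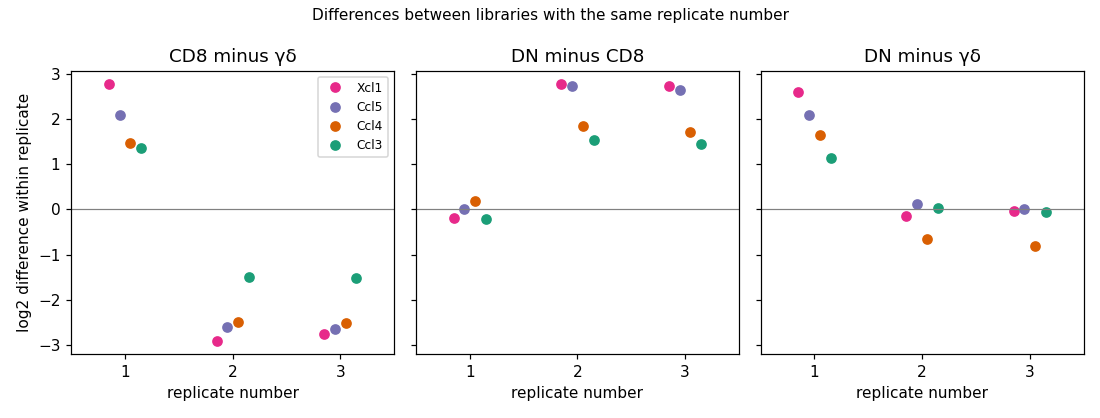
Log2 difference of each gene between libraries with the same replicate number (horizontal axis), for CD8 minus γδ, DN minus CD8 and DN minus γδ. CD8 minus γδ is above 0 in replicate 1 and below 0 in replicates 2 and 3 for all 4 genes.

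**Figure D3:**
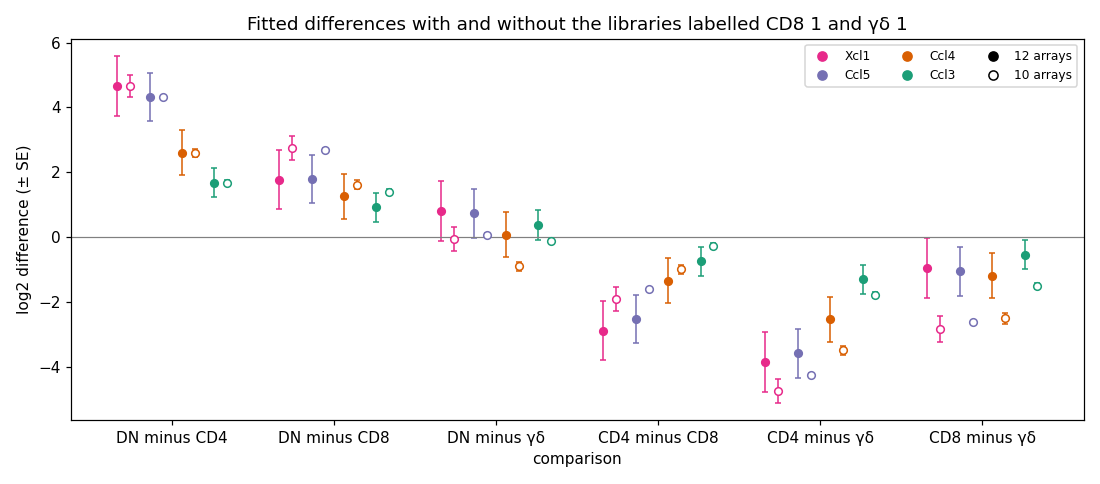
Fitted log2 differences of the 4 genes with their SE (bars) in the 6 comparisons, over 12 arrays as labelled (filled) and over 10 arrays without the libraries labelled CD8 1 and γδ 1 (open). DN minus CD4 is the same in both fits, while CD8 minus γδ moves from a median of -1.01 to -2.57.

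The correlations among the 4 genes are largely set by their choice, since the DN and CD4 arrays behind that choice are among the points. Over 12 arrays, which share 4 fractions and 2 array series, Pearson's r of log2 signal was 0.986 between Ccl5 and Xcl1, 0.957 between Ccl3 and Ccl4, 0.965 between Ccl3 and Ccl5, and 0.929 between Ccl4 and Xcl1. Ccl4 ranked 87 of 16941 genes by likeness to Ccl3, and Xcl1 ranked 89 by likeness to Ccl4. By the same measure the 5 genes most like Ccl3 were Cited4, Themis2, Gzma, Heyl and Car2, with r between 0.991 and 0.996. Those most like Ccl4 were Cd200r4, Spin2c, F10, Serpinb6b and Mroh9, with r between 0.968 and 0.980. Apart from Xcl1 itself, Ccl5 was followed most closely by Gzmb, Ncf1, Tesk1, Car2 and Gzma, with r between 0.984 and 0.996, and Xcl1 by Tesk1, Ncf1, Gzmb, Car2 and Rnf130, with r between 0.978 and 0.987. Over 10 arrays Cited4, Themis2, Heyl and Car2 were again among the 5 most like Ccl3, now with Fabp2, an epithelial marker. Ccl4 was then most like Mroh9, Cd200r4, Efhd2, H2-Ob and Rps6ka5, Ccl5 like Gzmb, Gzma, Ncf1, F10 and Tesk1, and Xcl1 like Sirt3, Tesk1, Ncf1, Gzmb and Dusp22. These are descriptions of 12 or 10 arrays that fall into few levels.

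The genes next to the 4 did not all share their pattern. In the order of RefSeq on chromosome 11, Heatr9 comes before Ccl5, Ccl9 and Ccl6 lie between Ccl5 and Ccl3, and Wfdc17, Wfdc18 and Wfdc21 follow Ccl4. Ccl6, a CC chemokine between them, stayed between 5.81 and 5.96 on all arrays, with an adjusted p of 0.997 for DN against CD4 from limma. Ccl9 was not listed on all arrays of any fraction. Heatr9 was at 6.30, 6.13 and 6.13 in DN 1 to 3, 5.78, 5.82 and 5.82 in CD4 1 to 3 and 6.30 in the library labelled CD8 1. Its difference of 0.38 between DN and CD4 missed the threshold over 12 arrays (adjusted p 0.162, limma) and passed it over 10 (0.00279). Taf15, Mmp28, Wfdc18 and Wfdc21 passed in neither. On chromosome 1, Dpt and Tbx19 lie directly beside Xcl1, and neither passed over 12 or 10 arrays. Nme7 and Tiprl, further out, did not pass either. Ccl6, Dpt, Tbx19, Wfdc18 and Wfdc21 read at most 6.10 on every array, near the 5.86 to 5.98 of Ccl3 in CD4. Mmp28, Taf15 and Nme7 read at most 6.50. Flat values that low cannot show whether a neighbour shares the pattern. Atp1b1, a sodium pump subunit gene beyond Dpt, ran the other way, with 8.25, 8.64 and 8.64 in DN and 9.37, 9.94 and 9.99 in CD4. Its difference of -1.26 had an adjusted p of 0.545 over 12 arrays and 0.0042 over 10 (limma). Sft2d2, on the other side of Xcl1 beyond Tbx19, ran with the chemokines, with 6.90, 6.78 and 6.79 in DN and 6.59, 6.60 and 6.61 in CD4. Its difference of 0.22 had an adjusted p of 0.678 over 12 arrays and 0.0198 over 10 (limma). Of all genes, 2.28% were called in DN against CD4 over 12 arrays and 10.6% over 10.

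The other chemokine ligands that could be tested had low signals that varied little between fractions. Of 36 further ligands 20 could be tested, 12 were not listed on all arrays of any fraction and 4 had no probe. Log2 signals of the 20 stayed between 5.69 and 7.09 on every array. Their fraction means spread by at most 0.35, and by under 0.2 in 16. That range holds the levels of Ccl3 in CD4, 5.86 to 5.98, near the edge of detection. Flat values that low cannot show whether a gene follows the pattern. In DN against CD4, 1 of the 20 was called lower in DN and 0 higher, where 1.45% of all genes were called lower and 2.28% in either direction. The one called was Ccl20, which attracts Ccr6-bearing cells to the gut epithelium. It read 5.98, 6.06 and 6.16 in CD4 1 to 3 and between 5.69 and 5.77 in the other 9 libraries, and was listed on 3 CD4 arrays and 1 DN array but on 0 arrays of CD8 and γδ. It was tested only because all 3 CD4 arrays listed it, so that its calls against the other fractions, at 12 or 10 arrays, are not support for a difference and no fold is given. In DN against CD8 over 10 arrays Ccl8 was called lower in DN (-0.32, adjusted p 0.0447) and Cxcl3 higher (0.16, adjusted p 0.0382). Both calls were fragile: Ccl8 kept its call in 2 of 10 fits that left out a further library and Cxcl3 in 4, with a highest adjusted p of 0.285 and 0.223 without CD8 3 and CD8 2.

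Ccr1 and Ccr3, receptors of these ligands, had low signals in these T cells. Ccr1, a receptor of Ccl3 and Ccl5, read between 5.75 and 6.30, and Ccr3, which binds Ccl5, between 5.79 and 5.92. Xcr1, the receptor of Xcl1, and the scavenger Ackr2 were not listed on all arrays of any fraction. Ccr1 was called once, in DN against CD8 over 10 arrays, with a log2 difference of 0.37 ± 0.08 (SE, n = 3 and 2, adjusted p 0.0238 with limma), and it missed the threshold without CD8 2 or CD8 3 (highest adjusted p 0.131).

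Among 7 cytokine genes often released with these ligands, Csf2, which encodes GM-CSF, moved with them. It read 6.84, 7.06 and 7.17 in DN 1 to 3 and 5.87, 5.84 and 5.81 in CD4 1 to 3. γδ 2 and γδ 3 stood at 7.74 and 7.59, and both CD8 2 and CD8 3 at 5.87. The library labelled CD8 1 was at 7.55 and the library labelled γδ 1 at 5.84. As with Ccl4, γδ 2 and γδ 3 stood above every DN library. Over 12 arrays 0 of the 7 were called between DN and CD4 by limma, beside 2.28% of all genes, with 2 at an unadjusted p under 0.05, as had 2360 of 16942 genes. Over 10 arrays Csf2 alone of the 7 was called, where 10.6% of all genes were called in DN against CD4, with 1.18 ± 0.08 for DN minus CD4 (adjusted p 0.000114), 1.15 ± 0.09 for DN minus CD8 (0.000268), -1.80 ± 0.10 for CD8 minus γδ (7.92e-05) and -1.82 ± 0.09 for CD4 minus γδ (3.66e-05). These 4 calls held in 10 of 10 fits without a further library, of which 4 leave 1 CD8 or γδ library and take its spread from the other groups. DN minus γδ was -0.64 ± 0.09 (adjusted p 0.0286), and that call was kept in 3 of 10 such fits, with a highest adjusted p of 0.238 without γδ 2. Ifng, Tnf and Il2 were not called in any of the 6 comparisons over 12 or 10 arrays.

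The granzymes, serine proteases stored in cytotoxic granules together with these chemokines, had the widest differences among the 8 genes of packing and trimming. Gzmb read 14.75, 14.53 and 14.70 in DN, 9.69, 9.48 and 9.51 in CD4, 11.12 and 11.20 in CD8 2 and CD8 3, and 14.02 and 14.48 in γδ 2 and γδ 3. Gzma read 12.65, 13.42 and 13.38 in DN, 7.49, 7.45 and 7.63 in CD4, 9.11 and 9.24 in CD8 2 and CD8 3, and 13.11 and 12.99 in γδ 2 and γδ 3. The library labelled CD8 1 was at the DN level for both genes. The library labelled γδ 1 was near CD8 2 and CD8 3 for Gzma, with 9.09, and above them for Gzmb, with 11.98. Over 12 arrays Gzmb was called in DN against CD4 with 5.10 ± 0.94 (SE, n = 3 each, adjusted p 0.0285, limma), but only 5 of 12 fits without 1 library kept the call. It missed it without any 1 of the DN or CD4 libraries or γδ 2, at most at 0.11. Over 10 arrays CD8 minus γδ was -3.09 ± 0.15 for Gzmb (adjusted p 4.45e-05) and -3.87 ± 0.24 for Gzma (0.000133), both kept in 10 of 10 fits.

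Stx11, a syntaxin needed for the release of cytotoxic granules, had another order. It read 7.77, 7.94 and 8.02 in CD4 1 to 3, 6.88, 6.93 and 6.99 in DN 1 to 3, 6.98 and 6.99 in γδ 2 and γδ 3, and 6.39 in both CD8 2 and CD8 3. CD4 libraries, lowest for the chemokines, were highest here. Over 12 arrays the log2 difference, DN minus CD4, was -0.98 ± 0.21 (SE, n = 3 each, adjusted p 0.0474, limma), and it was called in 2 of 12 fits without 1 library, those without the library labelled CD8 1 and without the library labelled γδ 1 (highest 0.175, without CD4 3). Over 10 arrays it was called in 5 of the 6 comparisons, with an adjusted p of 7.17e-05 for DN against CD4, kept in 10 of 10 fits. Srgn, the proteoglycan that packs chemokines and granzymes, was called higher in DN than in CD8 over 10 arrays (1.74 ± 0.35, adjusted p 0.0181, limma), though not without CD8 2 or CD8 3. It did not have the order of the chemokines, with 9.05, 8.38 and 8.03 in DN 1 to 3 and 7.96, 8.67 and 8.92 in CD4 1 to 3. γδ 2 and γδ 3 read 7.60 and 7.77. Over 10 arrays Srgn was also called higher in CD4 than in CD8, and it was not called between DN and CD4. Dpp4, a protease that trims Ccl5, was lower in DN than in CD8 there (-1.53 ± 0.17, adjusted p 0.00145), in 10 of 10 fits.

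Of 12 transcription factors of effector lymphocytes, limma called 0 between DN and CD4 over 12 arrays, beside 2.28% of all genes, with 3 at an unadjusted p under 0.05. Over 10 arrays it called 2 of 12 in DN against CD4, beside 10.6% of all genes, 4 in DN against CD8, beside 12.9%, and 3 in CD8 against γδ, beside 7.38%. Irf8, a factor better known from myeloid and B cells and also induced in effector T cells, read 9.52, 10.33 and 10.30 in DN and 6.98, 6.77 and 6.74 in CD4. It read 6.54 and 6.50 in CD8 2 and CD8 3, 9.47 and 9.44 in γδ 2 and γδ 3, 9.26 in the library labelled CD8 1 and 6.62 in the library labelled γδ 1. Over 10 arrays it was called in 4 comparisons, 3.22 ± 0.21 for DN minus CD4 (adjusted p 8.14e-05), 3.53 ± 0.23 for DN minus CD8 (0.000108), -2.62 ± 0.23 for CD4 minus γδ (0.000531) and -2.94 ± 0.25 for CD8 minus γδ (0.000643), each kept in 10 of 10 fits. Tbx21 and Runx3, which drive effector genes in cytotoxic T cells, were called in none of the comparisons. Eomes, a T-box factor of memory CD8 cells, was higher in CD8 than in γδ (0.40 ± 0.05, adjusted p 0.00483), in 10 of 10 fits, opposite to the 4 chemokines. It was also higher in CD8 than in CD4 (adjusted p 0.0124, lost without CD8 2 or CD8 3, at most 0.0977) and than in DN (0.0324, kept in 3 of 10 fits, at most 0.192 without CD8 2). Hopx, Klf13 and Id2 were called in at most 2 comparisons each over 10 arrays, with adjusted p between 0.0255 and 0.0453, and those calls were kept in 1 to 3 of 10 fits, with a highest adjusted p of 0.239 for Id2 without γδ 3.

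Among factors that activate chemokine genes, Nr4a2, an immediate early nuclear receptor, came nearest to the chemokine pattern. Over 12 arrays limma called Nr4a2 in no comparison. It read 8.07, 8 and 7.84 in DN, 5.85, 5.88 and 5.95 in CD4, 6.02 and 6.01 in CD8 2 and CD8 3, and 7.38 and 7.36 in γδ 2 and γδ 3. Over 10 arrays DN minus CD4 was 2.08 ± 0.06 (adjusted p 1.43e-06), DN minus CD8 was 1.96 ± 0.07 (5.22e-06) and CD8 minus γδ was -1.35 ± 0.07 (6.9e-05), each called in 10 of 10 fits. DN also exceeded γδ, by 0.60 ± 0.07 (adjusted p 0.0115), a call lost without DN 2, γδ 2 or γδ 3 (at most 0.124). Egr2, a factor of T cell receptor signalling and anergy, went the other way, with 6.32, 6.49 and 6.56 in DN and 7.22, 7.80 and 7.64 in CD4. DN minus CD4 was -1.10 ± 0.18 over 12 arrays (adjusted p 0.0146), lost without DN 2, DN 3, CD4 2 or CD4 3 (at most 0.0722), and called over 10 arrays in 10 of 10 fits. Nfkb2, an NF-kB subunit, was higher in DN than in CD8 (1.04 ± 0.13, adjusted p 0.00235) and Junb, an AP-1 subunit, lower (-0.54 ± 0.07, 0.00265). Fos, its AP-1 partner, was higher (0.38 ± 0.05, 0.0023), and these 3 calls over 10 arrays were kept in 10 of 10 fits. Of the genes that control decay of short-lived messages, Zfp36l2 was lower in DN than in CD8 over 10 arrays (-1.85 ± 0.21, adjusted p 0.00158), in 10 of 10 fits. Zc3h12a was higher (0.95 ± 0.23, adjusted p 0.0372) but kept in 3 of 10, at most 0.171 without CD8 2.

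**Figure D4:**
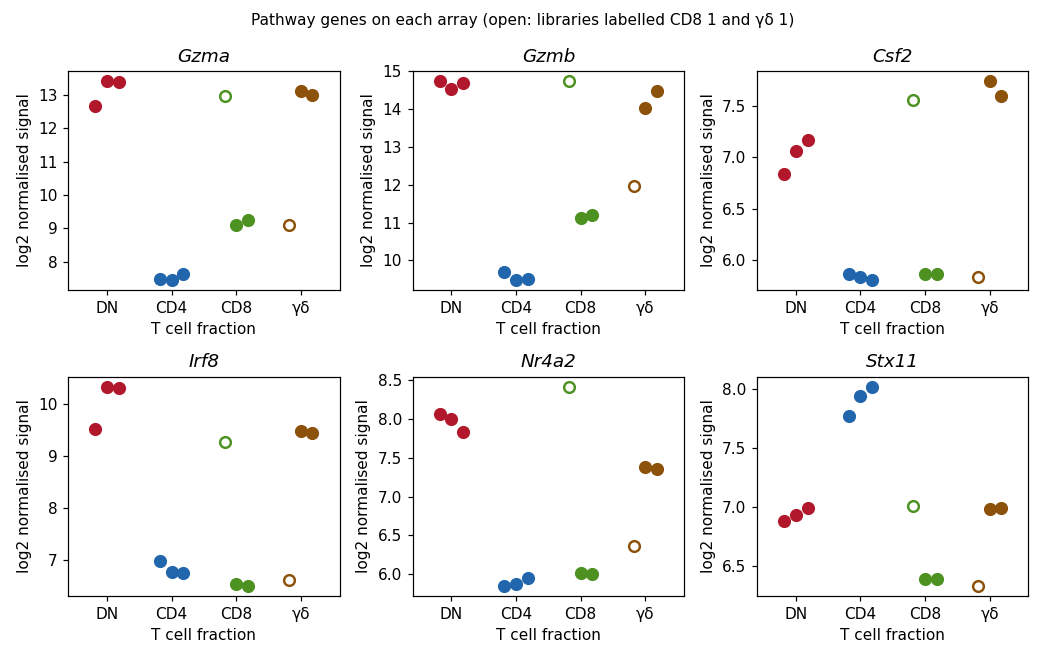
Log2 normalised signal of Gzma, Gzmb, Csf2, Irf8, Nr4a2 and Stx11 on each array of the 4 fractions, with 1 point per array and open points for the libraries labelled CD8 1 and γδ 1. Gzma, Gzmb, Csf2, Irf8 and Nr4a2 are high in DN, γδ 2, γδ 3 and the library labelled CD8 1, while Stx11 is highest in CD4.

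Over all 7 of these lists, 72 genes were tested. These counts include Ccl20. Over 12 arrays only Ccl20, Egr2, Gzmb and Stx11 were called in any comparison, so calls of other genes of these lists rest on the 10 arrays alone. As labelled, 4 were called in DN against CD4, 5.56% of them against 2.28% of all genes, 2 in CD4 against CD8, where 1.07% of all genes were called, and 3 in CD4 against γδ, where 1.14% were. limma called 0 in DN against CD8, DN against γδ and CD8 against γδ, with 11, 2 and 2 genes at an unadjusted p under 0.05, where 0.0177%, 0.0118% and 0% of all genes were called. With the replicate number as a block the counts were 8, 5 and 7 in the comparisons with CD4, beside 5.29%, 2.23% and 2.94% of all genes. Over 10 arrays 14 of 72 were called in DN against CD4, beside 10.6% of all genes, 19 in DN against CD8, beside 12.9%, and 2 in DN against γδ, beside 0.968%. In the other comparisons 9 were called in CD4 against CD8, beside 5.39% of all genes, 11 in CD4 against γδ, beside 9%, and 11 in CD8 against γδ, beside 7.38%. With the block over 10 arrays these counts were 27, 29, 6, 19, 20 and 19, and the shares of all genes were 22.8%, 24.2%, 4.83%, 14.3%, 19.8% and 17.9%.

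Some markers of other cell types moved with the chemokines, and their part in these results was not tested. In DN against CD4 over 10 arrays, where 5.08% of all genes were called higher, limma called higher in DN 4 of 7 natural killer cell markers, 7 of 8 B cell markers, 3 of 5 dendritic cell markers and 6 of 9 epithelial markers. Over 12 arrays it called 1, 1, 0 and 1 of them, and 0.832% of all genes. Among the B cell markers, Cr2 was tested only because all 3 DN arrays listed it. Its call over 10 arrays is therefore not support for a difference. The 10-array calls of Cr2, Fcer2a, Ebf1 and the dendritic cell marker Siglech were each lost without DN 2 and without DN 3. That of the epithelial marker Epcam was lost without CD4 2 and without CD4 3. The summed intensity of 7 natural killer cell markers in the value table was 21760 to 26150 in DN, 343.9 to 364.8 in CD4, 3609 and 3687 in CD8 2 and CD8 3, and 19230 and 16450 in γδ 2 and γδ 3. It was 24760 in the library labelled CD8 1 and 4422 in the library labelled γδ 1. Klrd1, Klre1, Tyrobp and Fcer1g carried that sum. Ncr1, a receptor gene that marks the natural killer lineage, stayed between 5.82 and 5.97 in log2 signal in every library, and Itga2 between 5.83 and 5.91. Klrb1c was not higher in DN than in CD4, with 6.72, 6.87 and 6.93 in DN 1 to 3 and 6.70, 7.19 and 7.21 in CD4 1 to 3. Klrd1 and Fcer1g are also known from innate-like and activated T cells. The sum of 8 B cell markers was 11700 to 14690 in DN, 407.9 to 1012 in CD4, 620.7 and 728.2 in CD8 2 and CD8 3, 9062 and 9575 in γδ 2 and γδ 3, 7035 in the library labelled CD8 1 and 1096 in the library labelled γδ 1. Ms4a1, which encodes CD20, was between 10.76 and 11.39 in DN and between 6.40 and 7.29 in CD4, and Pax5 between 5.94 and 6.11 and between 5.79 and 5.80.

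Dendritic cell and epithelial markers had lower sums, also higher in DN than in CD4. CD8 2 and CD8 3 did not lie between them, within the CD4 range for dendritic cell markers and below it for epithelial markers. The 7 dendritic cell markers summed to 439.5 to 596.2 in DN, 91.4 to 123.0 in CD4, and 106.1 and 117.7 in CD8 2 and CD8 3, led by Itgax, while Xcr1 and Clec9a were not listed on all arrays of any fraction. The 9 epithelial markers summed to 931.6 to 1440 in DN and 457.6 to 778.5 in CD4, and to 311.7 and 295.9 in CD8 2 and CD8 3. Reg3b, an antimicrobial lectin of the epithelium, read 7.58, 7.22 and 7.22 in DN, above every other library. The sum of macrophage and monocyte markers, known sources of Ccl3, Ccl4 and Ccl5, did not follow the chemokines, with 365.0 to 912.9 in DN and 415.7 to 765.0 in CD4. Nor did the sum of granulocyte and mast cell markers, with 136.3 to 167.0 in DN and 157.8 to 182.1 in CD4. Kit, a marker of that list, went with the chemokines, though at low signal. It read 6.16, 6.27 and 6.29 in DN 1 to 3 and 5.77, 5.78 and 5.83 in CD4 1 to 3. CD8 2 and CD8 3 read 5.77 and 5.78, and γδ 2 and γδ 3 read 6.38 and 6.5. The libraries labelled CD8 1 and γδ 1 read 6.47 and 5.69. In DN against CD4 over 10 arrays limma called 1 of the 6 tested higher in DN, Kit, and 1 lower, Gata1. Both calls were kept in 10 of 10 fits without a further library.

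**Figure D5:**
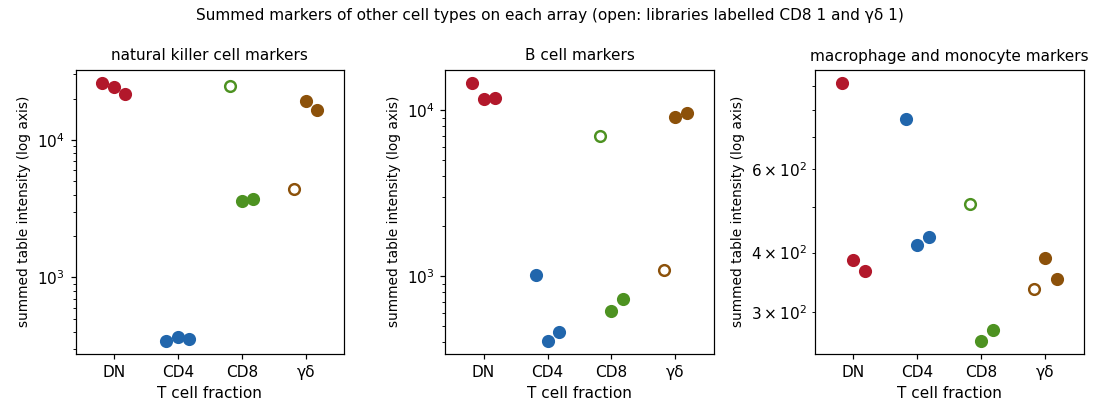
Summed value-table intensity (log axis) of markers of natural killer cells, B cells, and macrophages and monocytes on each array, with open points for the libraries labelled CD8 1 and γδ 1. The natural killer cell and B cell sums are high in DN, γδ 2, γδ 3 and the library labelled CD8 1, and the macrophage sum overlaps between DN (365.0 to 912.9) and CD4 (415.7 to 765.0).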

How the data were processed

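RNA of 12 sorted samples was read on 1-colour (Cy5) mouse arrays. Per the file headers, the deposited array files hold spot median intensity without background correction or normalisation. The deposited value table holds a linear intensity with a median of 25 per array, empty where a spot was not above background; how the authors made it is not given in the sources used here. Groups came from the sample titles.

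In R 4.3.3 with limma 3.58.1, spot medians were corrected with normexp (offset 50, which narrows differences of dim genes), taken to log2 and quantile normalised. Local background was not subtracted, since it rose with its spot. 25 marked probes were dropped. A gene was tested if a probe was listed in the value table on all 3 arrays of at least 1 fraction, keeping the brightest probe per symbol: 16942 of 19321 symbols. lmFit and eBayes fitted the 4 fraction means over 12 arrays, two-sided, with Benjamini-Hochberg adjustment over all genes and calls at adjusted p under 0.05. The script was tested on simulated data.

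The blank spots of an array averaged 58.6 to 62.2 and its median spot was 70.8 to 77.9 intensity units; 18930 to 21394 of 23473 probes were listed. Precision is set by how few arrays there are.

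The members and lists were chosen with earlier results of these data known, as was leaving out the libraries labelled CD8 1 and γδ 1. The text names the members, up to 3 called genes per list and comparison with the smallest adjusted p, the 5 genes with the highest Pearson's r per member, the sort genes and receptors, and up to 3 markers per cell type. Neighbours on the chromosome, further called or uncalled list genes and further markers were named after their values were seen.

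After fraction means were taken off, same-numbered arrays of different fractions correlated above 0.1 in 18 of 18 pairs (highest 0.735), so the number was tried as a block. Number 1 is array series 1, and numbers 2 and 3 share series 2, where 12 pairs of different number correlated at 0.0758 to 0.625 and 12 of the same number at 0.1 to 0.672. The series was tried as another block. Within a fraction, Pearson's r between replicates 2 and 3 was 0.997 to 0.998. Alternatives were other background, offset, scaling, filter, blocks, the value table and libraries left out. Figures used Python 3.11.15 with matplotlib 3.10.9. Promoters are RefSeq's.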

Additional observations from a re-analysis of the deposited data

How the results depend on the processing

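No value of the 4 genes changed sign under any alternative in 5 of the 6 comparisons. In DN against γδ 80 of 100 values kept the sign and the range was -0.90 to 1.27. None of these alternatives took replicate 1 alone. Within replicate 1, CD8 minus γδ was above 0 for all 4 genes, against the sign of the fits. DN minus CD8 was there -0.22 for Ccl3, 0.19 for Ccl4, 0 for Ccl5 and -0.19 for Xcl1. The cause of the shifts below was not tested. The median of the 4 log2 differences in DN against CD4 was 4.74 on the value table, with or without the libraries labelled CD8 1 and γδ 1, and 4 with a normexp offset of 16. Without those libraries on the value table it was 2.67 in DN against CD8, -4.77 in CD4 against γδ and -2.90 in CD8 against γδ, and on the value table with all libraries it was -3.08 in CD4 against CD8. In CD8 against γδ it was -2.57 without those libraries, also with the replicate block or the array series block, and in replicates 2 and 3 alone. With 1 library left out, the median ranged from 3.40 to 3.54 in DN against CD4, 1.16 to 2.16 in DN against CD8, -0.09 to 0.84 in DN against γδ (lowest without the library labelled γδ 1), -2.26 to -1.30 in CD4 against CD8, -3.88 to -2.65 in CD4 against γδ and -1.78 to -0.53 in CD8 against γδ.

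Counts of called genes among the 72 listed moved most. In DN against CD4 the 4 calls became 8 with only the 2 fractions fitted, 8 with the replicate block, 13 with the series block, 14 without both doubtful libraries (27 with the replicate block, 30 with the series block), 33 in replicates 2 and 3 alone and 11 on the value table without those libraries. In DN against CD8 the 0 became 1 with the series block, then 19, 29, 29, 36 and 18 in the same order. In DN against γδ the 0 became 2, 6, 6 and 14, up to replicates 2 and 3 alone. In CD4 against CD8 the 2 became 0 with only the 2 fractions, 5 with the replicate block, 8 with the series block, then 9, 19, 22, 32 and 11. In CD4 against γδ the 3 became 1 with median scaling, 0 with only the 2 fractions, 7 with the replicate block, 8 with the series block, then 11, 20, 23, 32 and 10. In CD8 against γδ the 0 became 11, 19, 22, 30 and 11. With 1 library left out the counts ranged from 1 to 9, 0 to 9, 0 to 0, 1 to 5, 1 to 6 and 0 to 0 in the same order of comparisons.

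The replicate block changed no call of the 4 genes in CD8 against γδ, with adjusted p from limma of 0.857 to 0.908 over 12 arrays and 2.83e-05 to 0.00311 over 10. The lowest of these was that of Ccl5, whose SE is too small because of tied top ranks. Averaging probes was not run, since each gene has 1 probe. The spot of Ccl5 at the scanner limit and Ccl3 near background in CD4 limit those values.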
